A study of Mus musculus with 8 samples.

Results

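The genes described here belong to the neighbouring Igf2-H19 and Kcnq1 imprinted clusters on distal mouse chromosome 7. They are Igf2, H19, Kcnq1ot1, Cdkn1c, Phlda2, Kcnq1, Ascl2, Slc22a18, Tssc4 and Cd81. All probe sets annotated to exactly 1 of these 10 symbols were taken, which gave 18 of the 45101 probe sets on the array, for 9 of the 18193 genes with a probe set of their own. H19 had none, because its probe set is annotated to H19 and to Mir675 together, so that probe set is described under both names.

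Affymetrix mouse 3'-IVT expression arrays were used on 8 clones of mouse induced pluripotent stem (iPS) cells, with 1 array for each. The clones of both groups came from embryonic fibroblasts of Col-OKSM reprogrammable mice, in which doxycycline induces Oct4, Sox2, Klf4 and cMyc. Of these clones, 4 were derived with ascorbic acid (vitamin C) in the medium and 4 without it, to ask how the supplement changes the clones. All 8 were grown with serum, LIF and doxycycline on irradiated fibroblast feeders, which were reduced by preplating before RNA was extracted. The clones are biological replicates per the labels, but a separate embryo or culture for each is not stated. The p-values here therefore set the group difference against the spread between these clones and reach no further than them. The labels state no age, sex or strain. Signals are in arbitrary units, and a value after ± is the SD over the 4 clones of a group unless SE is named.

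In imprinted genes only the copy from 1 parent is active. In the Igf2-H19 cluster a control region binds CTCF on the unmethylated maternal chromosome and insulates Igf2 from enhancers it shares with H19, so H19 is expressed from the maternal and Igf2 from the paternal copy. In the Kcnq1 cluster the long noncoding RNA Kcnq1ot1 is transcribed from the paternal chromosome and silences the neighbouring genes there, which leaves their maternal copies active. The reach of this silencing is wider in placenta than in the embryo, where Ascl2, Tssc4 and Cd81 are not uniformly imprinted. The arrays read the sum of both copies and cannot tell the parental origin of an RNA.

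None of the genes of these clusters differed between the groups past the threshold. The probe sets with the lowest p were that of H19 and Mir675, at 0.75-fold in the clones with ascorbic acid, and that of the potassium channel gene Kcnq1, at 0.61-fold, but neither passed after adjustment. In limma 0 of 9 tested genes had an adjusted p under 0.05, against 0.0229% of all 13125 tested genes, and 2 of 9 had an unadjusted p under 0.05, against 5.83% of all genes. These 2 were Igf2 and Kcnq1. Of the 9 genes, 7 were lower with ascorbic acid and 2 higher, where 51.4% of all tested genes were lower. The median log2 difference was -0.07 over the 9 genes and -0.0042 over all tested genes. All 9 had a probe set above the limit for dim signals, which removed 40% of probe sets and lay at a signal of about 93.7.

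**Figure D1:**
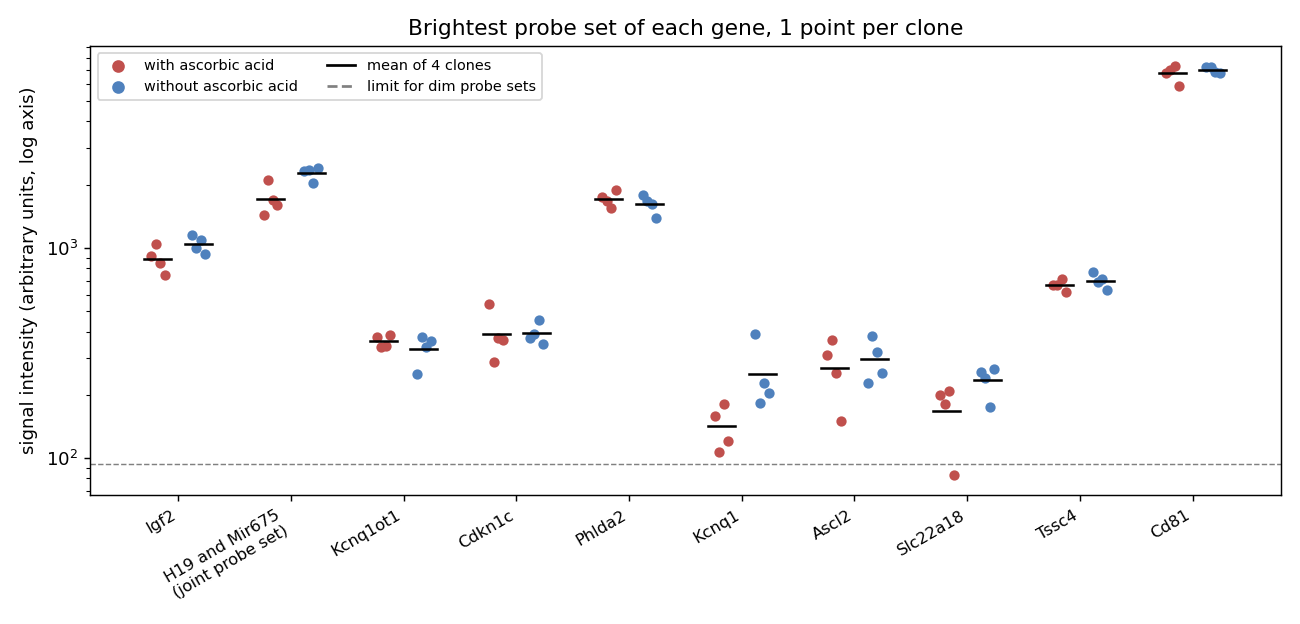
Signal intensity (log axis) of the brightest probe set of each gene, 1 point per clone, in 4 clones with ascorbic acid (left of each pair) and 4 without, with the mean of each group as a bar and the limit for dim probe sets dashed. The points of both groups overlap in all columns except Kcnq1, where the highest clone with ascorbic acid lies just under the lowest without.

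The Igf2-H19 cluster was read by 3 probe sets, and they include the RNA that gives rise to a pair of microRNAs. Mir675 lies inside H19, and its hairpin is cut from the H19 transcript. The mature sequences are shown because the H19 probe set carries both names. They are from RefSeq (GRCm38.p6), lie on the minus strand, and have bases 2 to 8, the seed that pairs with targets, in capitals. The positions are chr7:142577112-142577133 for the 5p arm and chr7:142577078-142577099 for the 3p arm.
mmu-miR-675-5p: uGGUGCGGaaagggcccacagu
mmu-miR-675-3p: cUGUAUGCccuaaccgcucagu
The 2 seeds differ, so the arms do not share a seed family. The array was not designed to read mature microRNAs, and no value here is a level of either arm.

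H19 is a long noncoding RNA that is abundant in fetal tissue and restrains growth in the mouse. Its joint probe set with Mir675 gave signals of 1441, 2114, 1684 and 1607 in clones 1 to 4 with ascorbic acid, against 2336, 2345, 2035 and 2407 in clones 1 to 4 without. Of the clones with ascorbic acid 3 lay under all clones without, and clone 2 lay above clone 3 of the other group, so the groups overlapped. The mean was 1711 ± 287 with and 2281 ± 167 without ascorbic acid, a log2 difference of -0.42 ± 0.10 (SE). In the limma fit over 27022 probe sets the unadjusted p was 0.00157 and the adjusted p 0.551. Without clone 2 of the ascorbic acid group the log2 difference was -0.53, with an adjusted p of 0.0887 in limma. That was the lowest p of the fits with 1 clone left out. With any other clone left out the log2 difference was -0.48 to -0.35, with an adjusted p of 0.624 to 0.954 in limma.

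Igf2 encodes insulin-like growth factor 2, a growth factor of the fetus and placenta. Its brighter probe set read 915, 1045, 846 and 745 in clones 1 to 4 with ascorbic acid, against 1147, 1005, 1093 and 935 without. Clone 2 with ascorbic acid lay above clones 2 and 4 without it, and the groups overlapped. The means were 888 ± 126 with and 1045 ± 93.8 without, a log2 difference of -0.24 ± 0.10 (SE) with a 95% interval of -0.46 to -0.016 (limma, unadjusted p = 0.0378, adjusted p = 0.826). The other Igf2 probe set was under the dim limit, with 89.0 ± 6.70 with and 99.6 ± 31.6 without ascorbic acid.

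Embryonic fibroblasts can themselves express Igf2 and H19, so the markers of feeder cells are given beside both. The fibroblast and feeder marker list had a summed signal of 57957, 69445, 57995 and 56921 in clones 1 to 4 with ascorbic acid, against 70838, 70242, 66471 and 65469 without. The sum was of linear signals, so the brightest markers, with up to 14442 in a clone, weighed most. Clone 2 with ascorbic acid, the highest of its group for the H19 probe set and for Igf2, was also the highest of its group for these markers. The other 3 clones with ascorbic acid were the lowest of all 8 in the marker sum, in the H19 probe set and in Igf2. The clones fall into these 3 and the other 5 in the marker sum, so no r over the uncentred values is given. With each group centred on its own mean, the log2 marker sum had an r of 0.80 with the H19 probe set over the 8 clones (exact permutation within groups, p = 0.115, adjusted over 5 relations 0.191). With Igf2 it had an r of 0.77 (exact permutation p = 0.0694, adjusted 0.182). Without clone 2 of the ascorbic acid group these were 0.17 and 0.52. The part of feeder RNA in the group differences was not tested. Of 25 tested markers 22 were lower and 3 higher, 0 past the threshold and 8 with an unadjusted limma p under 0.05, with a median log2 difference of -0.17. Over all tested genes 51.4% were lower and 5.83% had an unadjusted limma p under 0.05. Of the 29 markers with a probe set 4 were under the dim limit and 0 read a signal of 0. Of those with the smallest p, the matrix protein gene Postn read 317 ± 33.9 with and 416 ± 22.8 without ascorbic acid (limma, adjusted p = 0.749). The fibroblast transcription factor gene Twist1 went the other way, with 201 ± 26.7 with and 135 ± 21.1 without (limma, adjusted p = 0.749). In RNA from a mixed culture, fewer cells of a type and less RNA per cell cannot be told apart.

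**Figure D2:**
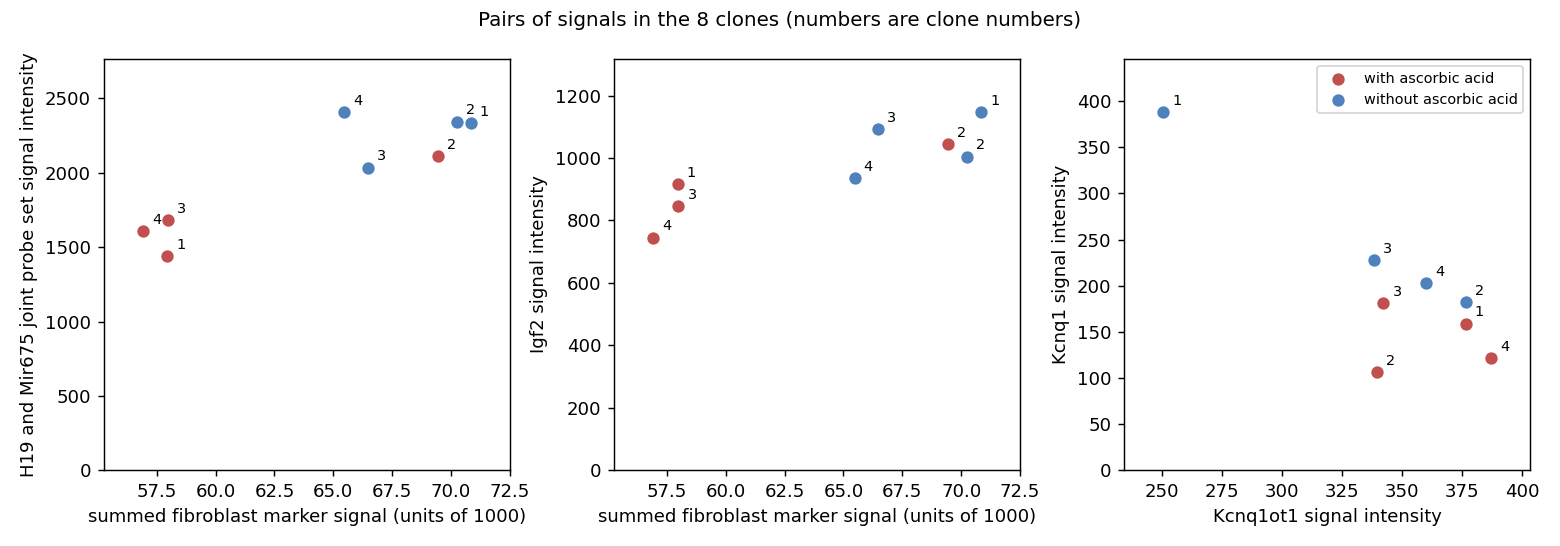
Left and middle, signal of the joint H19 and Mir675 probe set and of Igf2 (vertical) against the summed signal of 29 fibroblast and feeder markers, in units of 1000 (horizontal), 1 numbered point per clone. Right, Kcnq1 against Kcnq1ot1: clone 1 without ascorbic acid stands alone at 388 for Kcnq1 and 250 for Kcnq1ot1.

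Across the 8 clones, log2 Igf2 and the log2 signal of the H19 probe set had a Pearson r of 0.66 (exact permutation p = 0.0748, adjusted over 3 relations 0.112) and a Spearman rho of 0.52 (exact permutation p = 0.197, adjusted 0.295). Without the 2 clones farthest from the median of Igf2, clone 4 with and clone 1 without ascorbic acid, r was 0.50. That r includes the difference between the groups, since both signals were lower with ascorbic acid. With each group centred on its own mean r was 0.34 (exact permutation within groups, p = 0.556, adjusted over 5 relations 0.556), and it was -0.53 without clone 2 of the ascorbic acid group. All relations between signals here were chosen after the values were seen.

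**Figure D3:**
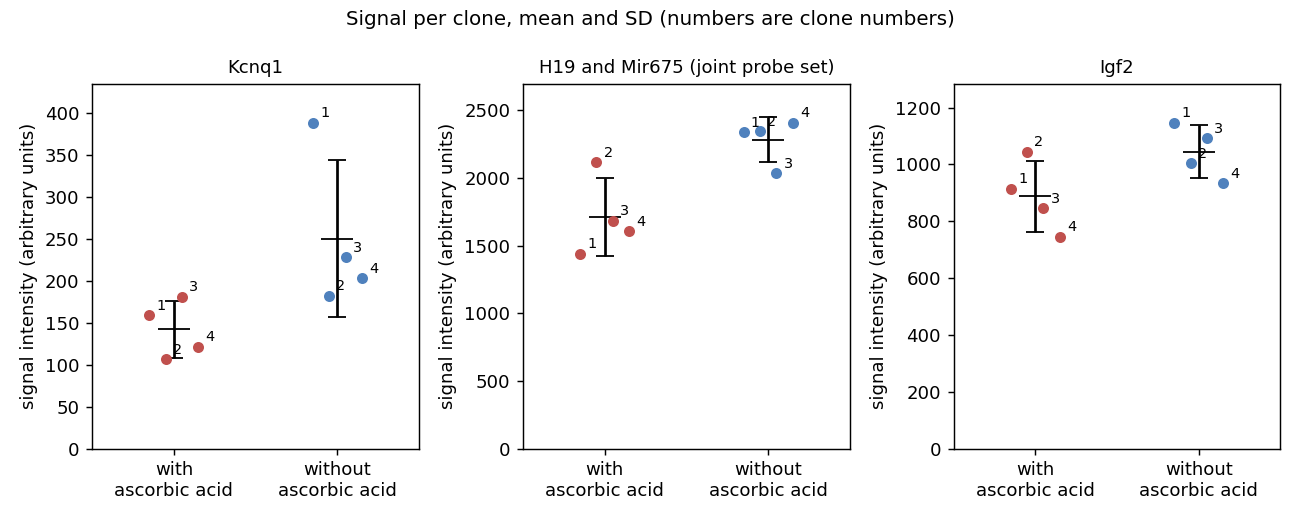
Signal intensity per clone for Kcnq1, the joint H19 and Mir675 probe set and Igf2, with clones with ascorbic acid on the left and without on the right, the mean and SD in black, and clone numbers beside the points. The vertical axes start at 0.

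In the Kcnq1 cluster, Kcnq1ot1 is the paternally expressed antisense RNA that starts inside Kcnq1. Its promoter lies in the imprinting control region of the cluster. The window from 250 bases before to 50 after the start is shown because this control element acts on other genes of the Kcnq1 cluster. The window is from RefSeq (GRCm38.p6), chr7:143296498-143296797, minus strand.
Kcnq1ot1: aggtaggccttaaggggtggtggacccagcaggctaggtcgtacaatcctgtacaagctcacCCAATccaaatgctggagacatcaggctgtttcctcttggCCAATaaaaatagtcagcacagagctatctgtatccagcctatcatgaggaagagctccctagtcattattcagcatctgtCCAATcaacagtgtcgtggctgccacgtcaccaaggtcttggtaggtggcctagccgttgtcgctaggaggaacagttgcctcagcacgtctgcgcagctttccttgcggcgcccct
The capitals mark the motif CCAAT, the box known to bind NF-Y, which was searched as CCAAT and on the other strand as ATTGG. It occurred 3 times in this window. Of 32851 promoter windows of the same length, 37.4% held the motif at least once on either strand and 3.21% held it at least 3 times. A match is a description of the letters and no evidence of binding.

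Promoter windows were in the table for 7 of the 10 genes, 10 windows in all, with 4 of them for Igf2. H19, Cdkn1c and Kcnq1 had no entry. The count of CG pairs, the sites of DNA methylation in mammals, was 9 in the Kcnq1ot1 window, against a median of 7 over all windows. It was 26 in the Phlda2 window, 23 in each of the Ascl2, Tssc4 and Cd81 windows, and 2 in that of Slc22a18. The 4 Igf2 windows had 2, 7, 14 and 24. The Ascl2 window also held the CCAAT motif 3 times, and the Phlda2 and Tssc4 windows and 1 of the 4 Igf2 windows, chr7:142657447-142657746, held it once each. DNA methylation was not measured in these samples.

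Kcnq1ot1 had 6 probe sets, of which 2 were above the dim limit. The brightest read 377, 340, 342 and 387 in clones 1 to 4 with ascorbic acid, against 250, 376, 338 and 360 without. Clone 1 without ascorbic acid was the lowest of all 8, and the groups overlapped. The means were 361 ± 24.0 with and 331 ± 56.1 without, a log2 difference of 0.13 with a 95% interval of -0.15 to 0.42 (limma, adjusted p = 0.909). With that low clone left out it was 0.011. The next brightest had a mean of 166 ± 23.6 with and 162 ± 38.6 without ascorbic acid, 0.05 apart on the log2 scale. The other 4 had group means of at most 31.0.

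Kcnq1 encodes a voltage-gated potassium channel of heart and epithelia. Its 1 probe set read 159, 107, 181 and 121 in clones 1 to 4 with ascorbic acid, against 388, 182, 228 and 203 without. It was a dim probe set, at percentile 55.8 of the array, where the dim limit lay at a signal of about 93.7. Every clone with ascorbic acid lay under every clone without, with a gap of 1.16 signal units between clone 3 with (180.8) and clone 2 without (182.0). The groups failed to overlap in 1 of the 9 genes, against 3.63% of all tested genes. The means were 142 ± 34.1 with and 250 ± 93.8 without, a log2 difference of -0.72 ± 0.23 (SE) with a 95% interval of -1.22 to -0.22 (limma, unadjusted p = 0.00866, adjusted p = 0.749). Clone 1 without ascorbic acid was the highest by far, and without it the log2 difference was -0.50 (limma, adjusted p = 0.948).

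The clone with the highest Kcnq1 signal, clone 1 without ascorbic acid, was also the one with the lowest Kcnq1ot1 signal. Over the 8 clones the log2 signals had a Pearson r of -0.77 (exact permutation p = 0.0375, adjusted 0.112) and a Spearman rho of -0.57 (exact permutation p = 0.151, adjusted 0.295). Without that clone and clone 4 with ascorbic acid, the 2 farthest from the median of Kcnq1ot1, r was 0.094. The r over the uncentred values therefore depended on those 2 clones. With each group centred on its own mean r was -0.78 (exact permutation within groups, p = 0.0729, adjusted over 5 relations 0.182). Without clone 2 of the ascorbic acid group the centred r was -0.97, but clone 1 without ascorbic acid was still in it. A centred r without that clone was not taken, so how far the centred r depended on it was not tested. Taken group by group, r was -0.043 in the clones with ascorbic acid and -0.999 in those without, which include clone 1. Kcnq1ot1 and Kcnq1 overlap on opposite strands, and the annotation used here gives each probe set to 1 of them.

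Cdkn1c encodes the cell cycle inhibitor p57Kip2, which slows growth of the embryo. Its probe set read 541, 288, 372 and 363 in clones 1 to 4 with ascorbic acid, against 375, 388, 456 and 350 without. Both the highest and the lowest of the 8 values were in the group with ascorbic acid. The means were 391 ± 107 with and 392 ± 45.4 without, a log2 difference of -0.03 with a 95% interval of -0.39 to 0.32 (limma, adjusted p = 0.983). The sign was not stable, and the log2 difference was 0.0020 after median centring of the arrays. With Kcnq1ot1 the Pearson r over 8 clones was 0.17 (exact permutation p = 0.608, adjusted 0.608) and the Spearman rho 0.048 (exact permutation p = 0.935, adjusted 0.935), and r was 0.45 without the 2 clones named for Kcnq1. With each group centred it was 0.21 (exact permutation within groups, p = 0.481, adjusted over 5 relations 0.556).

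Phlda2, which restrains growth of the placenta, read 1754, 1672, 1542 and 1878 in clones 1 to 4 with ascorbic acid, against 1794, 1681, 1615 and 1390 without. The groups overlapped, and the lowest value was in clone 4 without ascorbic acid. The log2 difference was 0.08 with a 95% interval of -0.10 to 0.27 (limma, adjusted p = 0.918), and 0.010 with that lowest clone left out. Phlda2 and Kcnq1ot1 were the 2 genes of the 9 with a higher mean in the clones with ascorbic acid.

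Slc22a18, which encodes a membrane protein of the organic cation transporter family, was read by 2 probe sets above the dim limit. The brighter read 200, 181, 209 and 83.4 in clones 1 to 4 with ascorbic acid, against 257, 241, 176 and 266 without. Clone 4 with ascorbic acid was the lowest, and clone 3 without lay among the clones with ascorbic acid. The means were 168 ± 57.8 with and 235 ± 40.8 without, a log2 difference of -0.50 with a 95% interval of -1.03 to 0.035 (limma, adjusted p = 0.844). Without clone 4 of the ascorbic acid group it was -0.23. The other probe set read 132 ± 21.8 with and 165 ± 55.5 without ascorbic acid, a log2 difference of -0.24.

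Ascl2, a basic helix-loop-helix factor of the trophoblast lineage, was read by 3 probe sets. The brightest read 309, 366, 253 and 150 in clones 1 to 4 with ascorbic acid, against 227, 382, 320 and 255 without. The groups overlapped over most of their range. The log2 difference was -0.17 with a 95% interval of -0.69 to 0.35 (limma, adjusted p = 0.942), and it was 0.071 without clone 4 of the ascorbic acid group. The other 2 probe sets were at -0.02 and -0.03. The brightest and 1 of the others are of the _s_at class, which can read several transcripts.

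The trophectoderm and placental marker list, set beside Ascl2 and Phlda2, had a summed signal of 9278 to 11451 with and 10064 to 12487 without ascorbic acid. Of its 12 tested genes 3 were higher and 9 lower, where 51.4% of all tested genes were lower, and the median log2 difference was -0.08. Of the 12, 0 passed the threshold and 0 had an unadjusted limma p under 0.05, against 5.83% of all tested genes. Its genes with the smallest p were Psg17, a pregnancy-specific glycoprotein gene, at 98.0 ± 18.6 with and 138 ± 48.8 without ascorbic acid, and the homeobox gene Rhox9 at 105 ± 56.0 with and 132 ± 19.2 without.

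Tssc4 and Cd81 lie at the edge of the Kcnq1 cluster. Tssc4, whose human protein takes part in splicing, read 664 ± 38.0 with and 698 ± 56.5 without ascorbic acid, with 616 to 709 in the clones with and 631 to 768 in the clones without. The log2 difference was -0.07 with a 95% interval of -0.25 to 0.11 (limma, adjusted p = 0.929), and -0.024 to -0.12 with 1 clone left out. Cd81, a tetraspanin of the cell surface, was among the brightest probe sets of the array, at percentile 98.2. It read 6780, 7056, 7317 and 5923 in clones 1 to 4 with ascorbic acid, against 7239, 7287, 6900 and 6811 without. The highest and the lowest value were both in clones with ascorbic acid. The log2 difference was -0.06 with a 95% interval of -0.22 to 0.09 (limma, adjusted p = 0.922), and it was -0.0017 without clone 4 of the ascorbic acid group.

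**Figure D4:**
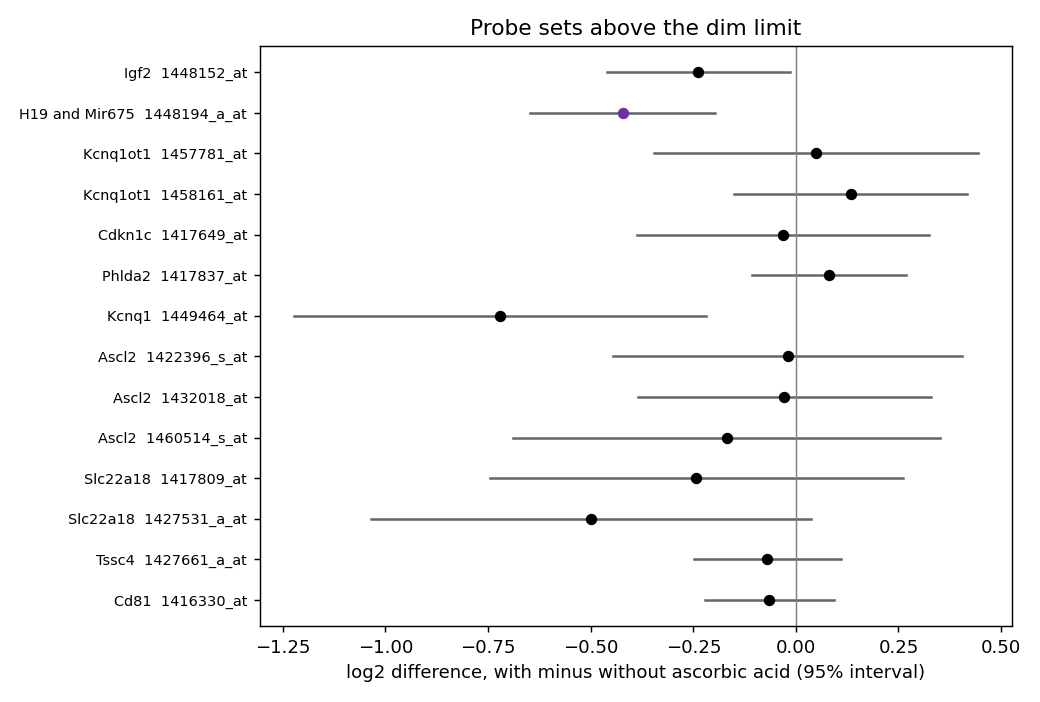
Log2 difference, with minus without ascorbic acid, and 95% interval (limma over 27022 probe sets, not adjusted for their number) for the 13 probe sets above the dim limit and the joint H19 and Mir675 probe set (purple). The intervals of Kcnq1, Igf2 and the joint probe set lie under 0, and the others span it.

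Over the 13 probe sets above the dim limit, 10 were lower and 3 higher with ascorbic acid, against 53.4% lower of the 27022 probe sets tested. In limma 0 of the 13 passed the threshold, against 0.0481% of all, and those of Kcnq1 and Igf2, 2 of the 13, had an unadjusted p under 0.05, against 5.55% of all. The intervals set what the data allow. Those of Cd81, Tssc4 and Phlda2 reach about 0.27 log2 or less from 0 on either side, while that of Ascl2 reaches from -0.69 to 0.35.

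Those intervals may be set beside the genes that passed in the same comparison. Of 13125 genes 3 passed, all higher with ascorbic acid: Rian and Meg3, maternally expressed RNAs of the imprinted Dlk1-Dio3 domain, at 2.68 and 2.42 log2, and Tcf15, a basic helix-loop-helix factor, at 1.14 log2. Rian passed under all 20 alternatives run, Meg3 under 18 and Tcf15 under 8. The 2 settings in which Meg3 did not pass were untrended eBayes, at an adjusted p of 0.136, and robust eBayes, at 0.0842. The highest upper bound of a 95% interval among the 9 genes of the chromosome 7 clusters was 0.42, for Kcnq1ot1. The lower bounds were 1.87 for Meg3 and 2.21 for Rian. All these bounds are for the brightest probe set of a gene. Meg3 and Rian were also picked because they passed, so their bounds are no floor on the change. Averaging the probe sets of a gene brought Meg3 down to 1.38 log2 and Rian to 1.98, the lowest among the 20 alternatives. The highest were 2.65 and 2.90. The maternally expressed genes of the chromosome 7 clusters had differences of -0.72 to 0.08 log2.

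**Figure D5:**
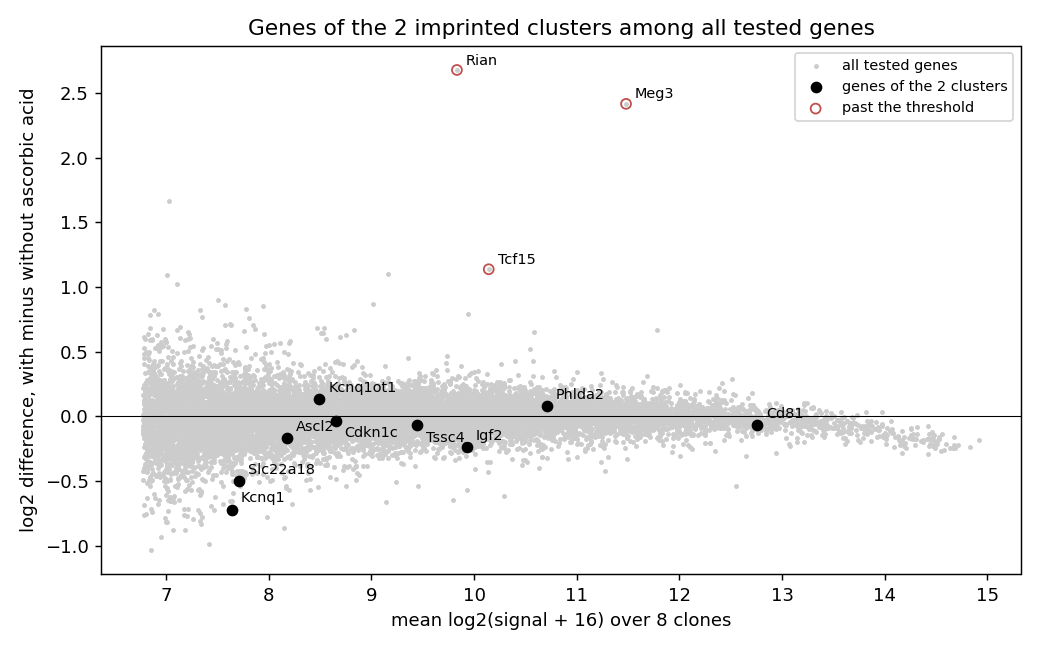
Log2 difference, with minus without ascorbic acid, against mean log2 level for 13125 tested genes (grey), with the 9 genes of the clusters in black and the 3 genes past the threshold circled. The 9 genes lie between -0.72 for Kcnq1 and 0.13 for Kcnq1ot1, apart from Rian, Meg3 and Tcf15.

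Other genes in and next to the clusters gave no call either. Of 16 tested neighbours 5 were higher and 11 lower, where 51.4% of all tested genes were lower, and the median log2 difference was -0.08. Of the 16, 0 passed the threshold and 1 had an unadjusted limma p under 0.05, against 5.83% of all tested genes. The one was Ctsd, a lysosomal protease gene, which read 4056 ± 237 with and 4446 ± 151 without ascorbic acid (limma, adjusted p = 0.834). Trpm5, a cation channel gene, read 123 ± 26.7 with and 157 ± 26.6 without (limma, adjusted p = 0.844).

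Among the genes that bind or carry the Igf2 signal there was no call. Of 16 tested ligand, receptor and binding protein genes 8 were higher and 8 lower, 0 past the threshold and 0 with an unadjusted limma p under 0.05, with a median log2 difference of -0.02. The lowest p values belonged to Igf2bp1, which binds Igf2 messenger RNA, at 4602 ± 358 with and 4168 ± 320 without ascorbic acid, and to Igfbp2, a secreted binding protein gene, at 14066 ± 1730 with and 16038 ± 1960 without. Their adjusted p in limma was 0.844 for each.

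The insulator at H19 depends on CTCF and cohesin. Of 10 tested genes of this list 5 were higher and 5 lower, 0 past the threshold and 2 with an unadjusted limma p under 0.05, with a median log2 difference of -0.0095. Those were Pds5b, a cohesin regulator gene, at 1048 ± 67.4 with and 905 ± 34.9 without ascorbic acid, and the cohesin subunit gene Stag2 at 1989 ± 394 with and 1588 ± 108 without (limma, adjusted p = 0.757 and 0.777). Of 4 relatives of Cdkn1c and Phlda2, 3 were higher and 1 lower, with 0 past the threshold, 1 with an unadjusted limma p under 0.05 and a median log2 difference of 0.09. That one, Phlda1, read 1017 ± 72.9 with and 825 ± 138 without (limma, adjusted p = 0.757), and Cdkn1b, the p27Kip1 gene, 980 ± 164 with and 860 ± 44.3 without (limma, adjusted p = 0.844).

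As a check of the label, all 16 pluripotency markers were above the dim limit, with signals of 914 to 32598. Among them Pou5f1 (Oct4), Sox2 and Klf4 are also induced by doxycycline, and RNA of the inducible copies was not told apart. The 16 markers summed to 113064 to 133775 with and 127495 to 139396 without ascorbic acid. Of the 16, 2 were higher and 14 lower, where 51.4% of all tested genes were lower. With 0 past the threshold, 3 had an unadjusted limma p under 0.05, against 5.83% of all tested genes, and the median log2 difference was -0.12. Those with the smallest p were the pluripotency factor genes Tbx3, at -0.28 log2, and Klf2, at -0.30. Primitive endoderm markers summed to 11009 to 13277 with and 13245 to 14329 without, with 6 higher and 7 lower of 13, 0 past the threshold and 2 with an unadjusted limma p under 0.05, and a median of -0.0052. These 2 were the secreted protein genes Cst3, at -0.23 log2, and Sparc, at -0.21.

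The genes most like Cdkn1c over the 8 clones, by Pearson r of log2 signals among 13116 other tested genes, were Hcrt, Hpx and Dse, with r of 0.957, 0.942 and 0.938. For the joint H19 and Mir675 probe set they were 2310022B05Rik, Arvcf and Ddah2, with r of 0.983, 0.970 and 0.960. An r over 0.9 was found for 0.137% of genes with Cdkn1c and for 0.335% with the joint probe set. They are the top of a long list over 8 clones that share arrays and groups, and are given as a description.

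Across the series, array medians ran between 134 and 156 signal units, and pairs of arrays correlated at 0.970 to 0.977 on the log2 scale. No 2 arrays were duplicates, with a median absolute log2 difference of at least 0.194 between any pair. The number of arrays limits the precision.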

How the data were processed

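The authors deposited a linear signal intensity for each probe set and clone. GCOS, the Affymetrix operating software, is named in the submitters' processing notes without version or settings. The values show that the authors scaled each array to a mean of 500 after trimming 2% at each end. Each of the 8 columns carries its sample's identifier.

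Of 45101 probe sets 64 are controls and were left out, 34945 have 1 gene symbol, 932 several and 9160 none. The 9 measured symbols matched RefSeq (GRCm38.p6) by Entrez identifier, and all kept their symbol. Signals were taken as log2(signal + 16), so fold changes understate those of dim genes. The dimmest 40% of probe sets were left out, and the brightest probe set stood for a gene, whichever way the others went. Differences are with minus without ascorbic acid, tested two-sided with limma 3.58.1 (lmFit, then trended eBayes; R 4.3.3) and Benjamini-Hochberg adjustment over 13125 genes, or over 27022 probe sets for single probe sets, at a threshold of 0.05. Intervals are at 95% and not adjusted. Correlations across clones used exact permutation over all orders, or within groups after centring each group (576 orders; numpy and scipy 1.17.1), and drawings matplotlib 3.10.9. The fit was tested on simulated data. Motifs were counted in RefSeq promoter windows.

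Named were the genes of the clusters, the genes of each list past the threshold or else the 2 with the smallest p, the 3 genes most like Cdkn1c and the joint probe set, and Meg3, Rian and Tcf15. The genes and lists were chosen with earlier results of these data known. Same-numbered clones were checked for pairing: the correlations of their deviations from group means were -0.17, -0.058, 0.012 and -0.020, so the number was not taken to pair them. Alternatives changed scaling, pseudocount, the dim filter, probe set choice, the eBayes options, array weights, the replicate block and the clones included.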

Additional observations from a re-analysis of the deposited data

Results flagged for a closer look

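Of 82 groups of 4 clones searched for a clone lying far outside its group, 3 (3.66%) had one, and chance alone flags about 5%. In an Ascl2 probe set of the _s_at class, clone 2 with ascorbic acid read 299.9, against 203 to 216 in the others of its group. For 2310022B05Rik, clone 3 without ascorbic acid read 2006, against 2162 to 2171. For Twist1, clone 2 with ascorbic acid read 161, against 212 to 217.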

How the results depend on the processing

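No gene or probe set of the 2 clusters passed the threshold under any of the 20 alternatives at gene level or the 19 at probe set level, where the lowest adjusted p of limma was 0.576 for a gene (Igf2) and 0.0887 for the joint H19 and Mir675 probe set. Igf2 (-0.32 to -0.16), Kcnq1 (-0.84 to -0.50), Slc22a18 (-0.62 to -0.23) and the joint probe set (-0.53 to -0.35) kept their direction under every alternative run. The median over the tested genes lay between -0.19 and -0.0092. Kcnq1 and Slc22a18 were under the 60% filter and have no value there. Signs turned for small differences. For Cdkn1c the log2 difference was 0.0020 under median centring and -0.19 to 0.097 with 1 clone left out. The brightest Ascl2 probe set ran from -0.33 to 0.071 with 1 clone left out. The second was at 0.014 under median centring, 0.013 with array weights and -0.14 to 0.17 with 1 clone left out. The third was at 0.0033 under quantile normalization, 0.0054 under median centring and -0.15 to 0.077 with 1 clone left out. The dimmer Kcnq1ot1 probe set ran from -0.064 to 0.17 with 1 clone left out. In these cases the cause was not tested. Over all genes 3 passed, and 1 passed in eBayes without the trend and 1 with robust estimation, and over all probe sets 13 passed and 8 without the trend. With the clone number as a replicate block 0 genes of the clusters passed, with Kcnq1 at an adjusted p of 0.889 in limma, and 3 genes over all passed. Same-numbered clones share only a number.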
